A study of Caenorhabditis elegans with 12 samples.

Results

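The small piRNA cluster on chromosome IV is the left one of a pair of domains in which *Caenorhabditis elegans* keeps most of its piRNA genes. Its members here were the windows of non-coding RefSeq transcripts on chromosome IV that were 1700 bp wide and started between 4500000 and 7000000 in the ce10 assembly. This rule used identifier, position and width but no measured value, and it gave 2823 of the 51519 windows in the table (5.48%). Each window runs from 1500 bp upstream to 200 bp downstream of a transcription start site (TSS). Because piRNA genes stand close together, neighbouring windows overlap heavily and count the same reads. The 2823 windows merged into 303 loci covering 1515.1 kb, and 709 of them could be chosen without any overlap, so the windows are not independent measurements.

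ATAC-seq, in which the Tn5 transposase cuts accessible DNA, was measured in body wall muscle sorted from L3 larvae, with 3 libraries for each of 4 genotypes. These were *met-2 set-25*, carrying *met-2(n4256)* III and *set-25(n5021)* III, each single mutant with its own allele, and wild type (WT), labelled N2 (Bristol). Cells were sorted in the study by an RFP reporter under the *myo-3* muscle promoter on the *gwIs4* array, which the labels do not list for any genotype. MET-2 deposits mono- and dimethylation and SET-25 trimethylation of histone H3 lysine 9 (H3K9me), the mark of silenced chromatin, so the comparison addresses how accessibility changes when either or both enzymes are missing. The study describes the ATAC-seq libraries of a genotype as independent biological replicates, whereas the growth protocol in the labels names fewer replicates than there are libraries. If the labels hold, the spread behind the p-values may in part be technical.

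piRNAs are short RNAs of the germline that guide the Argonaute PRG-1 to foreign and transposon transcripts. In *C. elegans* most are made from single, very small genes, each with its own promoter, whose transcription in germ nuclei depends on SNPC-4, PRDE-1 and TOFU proteins gathered on the clusters of chromosome IV. The pathway acts in the germline, and the windows here describe the cluster in sorted somatic cells.

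Column totals ranged from 50148450 to 105547683 counts, sums over overlapping windows and not sequencing depth, and cluster windows took 5.11 to 5.32% of them. The median cluster window held 920 to 1889 counts per library and the lowest single value was 111, so every window was well above a floor of 3 counts and all 2823 were tested. Below, a normalized count is a window's count scaled to the mean of the column totals. The tissue label was checked against marker promoters. Of 10 body-wall muscle genes, 9 had a window in the top decile of all windows in WT, against 0 of 8 germline, 1 of 6 intestine, 0 of 5 hypodermis, 0 of the 4 neuronal genes with a window and 1 of 3 pharynx genes. The *myo-3* promoter is also present on the reporter array. In *met-2 set-25* over WT, 7 of the 10 muscle genes had a higher window and 1 of the 8 germline genes a lower one. Of all windows, 3.44% were higher and 0.731% lower. The summed level of the muscle list was 459690 to 514500 normalized counts in *met-2 set-25* and 356080 to 429470 in *met-2*. It was 367550 to 372940 for *set-25* and 343550 to 419060 for WT, where the highest window of the list alone had 358900. The summed level of the germline list was 12253 to 12716 normalized counts in *met-2 set-25*, 12724 to 13482 in *met-2*, 13169 to 13459 for *set-25* and 13028 to 13356 for WT. The part of cell composition in the results was not tested.

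Most of the cluster was piRNA genes. Of 2811 windows whose transcript matched the WBcel235 annotation, 2524 (89.4% of the cluster) belonged to piRNA genes, every one annotated at 21 nt. The next class, 230 windows, was annotated only as ncRNA. There were 10 windows of snoRNA genes, which guide RNA modification, 9 of microRNA genes, 6 of lncRNA genes, 4 of snRNA genes and 2 of antisense RNAs. A further 26 windows were non-coding transcripts of protein-coding genes, and 12 did not match. For 6 of the 2811, the annotation placed the transcript on another chromosome. The 2 strands were used about evenly, with 1343 windows on plus and 1480 on minus. The largest merged locus, 5585396 to 5627611, ran for 42.2 kb and held 114 windows, whereas 89 loci were a single window. The widest gap without a cluster window was 46.3 kb. Coding promoters were interspersed throughout, since 1382 cluster windows overlapped a window of a protein-coding transcript and 1441 did not.

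In every genotype the cluster lay slightly below the typical promoter window and varied little. The median window had 1407 normalized counts in *met-2 set-25* libraries, against 1464 in *met-2*, with 1477 for *set-25* and 1451 for WT. The WT quartiles were 1350 and 1594. Library medians were 1420, 1377 and 1435 in *met-2 set-25* libraries, against 1449, 1436 and 1510 in *met-2*, with 1484, 1483 and 1470 for *set-25* and 1472, 1437 and 1451 for WT. The *met-2 set-25* libraries lay below all WT libraries, whereas the libraries of each single mutant overlapped with WT. The same held for all windows of the table, whose medians were 1463 in *met-2 set-25* libraries, against 1509 in *met-2*, with 1526 for *set-25* and 1512 for WT. The quartile span was 16.8% of the median in the cluster and 24.4% over all windows in WT, and a cluster window varied by a median of 5.02% between WT libraries (coefficient of variation). The large piRNA domain on the right of the chromosome, with 9933 windows, had lower medians of 1235 in *met-2 set-25* libraries, against 1327 in *met-2*, with 1366 for *set-25* and 1320 for WT. The 444 piRNA windows of chromosome IV outside both domains had 1464 normalized counts in *met-2 set-25* against 1557 in WT. The 731 coding windows in the same interval had 1479 and 1520 in these genotypes. These differences between sets were not tested, since windows that share reads are not replicates.

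**Figure D1:**
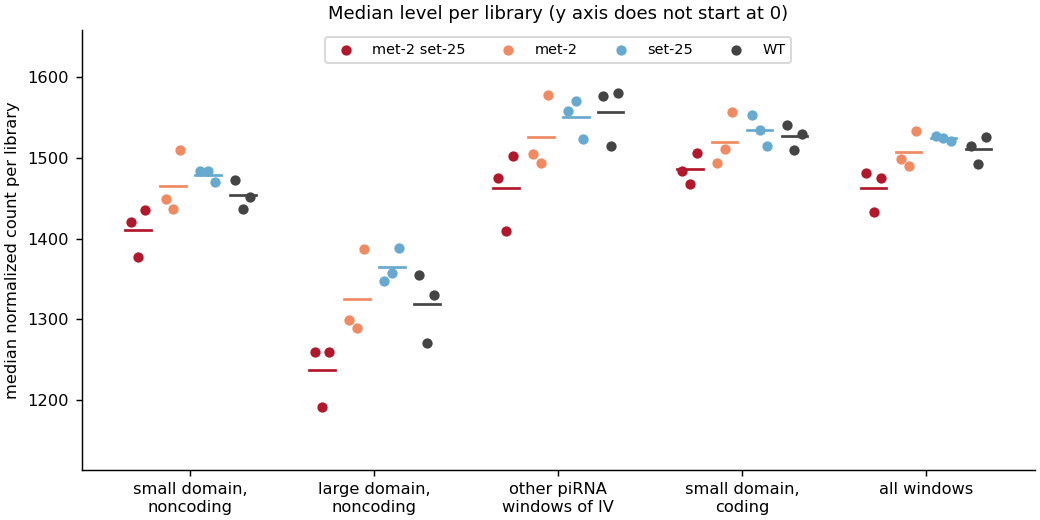
Median normalized count per library (y axis, which does not start at 0) for the small domain, the large domain, other piRNA windows of chromosome IV, coding windows of the small domain and all windows (x axis). Points are the 3 libraries of a genotype and the line is their mean. In the small domain *met-2 set-25* libraries sit between 1377 and 1435 and WT libraries between 1437 and 1472.

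Within the cluster, piRNA windows had less signal than the others. Their median was 1394 normalized counts in *met-2 set-25* against 1440 in WT. At the 299 remaining windows it was 1589 in *met-2 set-25* against 1609 in WT. Among the small classes, WT medians were 1750 at snoRNA, 1530 at microRNA and 1243 at snRNA windows. The signal was also higher in windows with few piRNA gene starts, without a steady fall as starts became more crowded. Windows that held no such start, none of them a piRNA window, had a WT median of 1669, and those with 1 start 1505. With 2, 3 to 4, 5 to 8 and 9 or more starts it was 1435, 1437, 1448 and 1415 (median 4 starts, highest 15). Distance to the nearest coding TSS showed little order, with WT medians between 1402 and 1465 in 6 bins of that distance. Windows that overlapped a coding window and those that did not had WT medians of 1447 and 1455. These are descriptions, and no test was applied to them.

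Single windows of the cluster spanned a far wider range than its quartiles. The highest WT level was at *21ur-10255* (5972926 to 5974625), overlapping windows of *unc-44*, the ankyrin of neurons, with 3394, 4471 and 4009 normalized counts in *met-2 set-25* libraries, against 3200, 3533 and 2597 in *met-2*, with 2449, 2741 and 2595 for *set-25* and 2770, 3438 and 2648 for WT. Windows that overlap one already named were passed over in this ranking. Next in WT came an unmatched transcript at 6336157 to 6337856 (mean 2668) and *21ur-778* (2640). The ncRNA genes *T19E7.26* (2524), whose window overlaps that of *skn-1*, a transcription factor of stress responses, and *B0350.74* (2503) followed. *21ur-10255*, the unmatched transcript, *T19E7.26* and *B0350.74* were also called higher in *met-2 set-25* than in WT. *21ur-778* was not called (log2 fold change (log2FC) 0.11, standard error 0.082, adjusted p = 0.41 from edgeR). The lowest level was at *21ur-9017* (6682442 to 6684141), with 170, 205 and 157 normalized counts in *met-2 set-25* against 178, 176 and 195 in WT. The next 4 without overlap, *21ur-7232*, *Y59E9AL.37*, *21ur-7478* and *21ur-14215*, had WT means between 412 and 471. Neither *21ur-9017* nor any of these 4 passed the test in *met-2 set-25*. How reads with several matches were counted is not given in the sources used here, and whether that sets these low values was not tested.

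In *met-2 set-25* a small number of stretches were called higher than in WT, while the median window of the cluster shifted about as much as that of the whole table. At a false discovery rate (FDR) below 0.01 in edgeR's quasi-likelihood test over all windows, 76 cluster windows (2.69%) were higher and 2 (0.0708%) were lower than in WT. Over all 51281 windows tested, 3.44% were higher and 0.731% lower, so the share of higher windows was below that of the table. The median log2FC of the cluster was -0.038, near that of all windows (-0.041), and it was -0.088 in the large domain, where 81 of 9933 windows were higher and 82 lower. With TMM scaling the cluster median was -0.00345, and with the signal index described below as a covariate it was 0.00723, so neither its size nor its sign was stable. With that covariate no cluster window was called higher or lower. The 3 *met-2 set-25* libraries lay above all 3 WT libraries at 190 windows (6.73%, against 10.5% of all windows) and below them at 358 (12.7%, against 17%).

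The number of higher windows depended on single libraries. It was 13 without *met-2 set-25* replicate 2, 14 without WT replicate 3, 23 without WT replicate 1 and 47 without *met-2 set-25* replicate 3, and leaving out WT replicate 2 gave 104 higher and 10 lower. The signal index, a measure of signal over background, was the share of autosomal counts in a fixed top 5% of autosomal windows. These were ranked by mean level in the *set-25* libraries, after leaving out the 10 windows with most counts. The index was 10.1, 11.3 and 10.4% in *met-2 set-25* libraries, against 9.78, 10 and 8.87% in *met-2*, with 9.12, 9.15 and 9.12% for *set-25* and 9.31, 9.99 and 9.08% for WT. It was highest in the *met-2 set-25* libraries without overlap, and with it as a covariate 0 cluster windows were called, so genotype and signal over background cannot be told apart.

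The 76 higher windows formed 23 separate stretches in 17 of the 303 merged loci, and 10 of these stretches overlapped no coding window. They comprised 58 piRNA windows (2.30% of the piRNA windows), 16 ncRNA windows (6.96%), 1 snoRNA window and 1 unmatched window. Their log2FC was small, with a median of 0.35 and a range from 0.23 to 0.53. Library medians over the 76 were 2152, 2361 and 2207 normalized counts in *met-2 set-25* libraries, against 2062, 1962 and 1817 in *met-2*, with 1694, 1874 and 1787 for *set-25* and 1756, 1961 and 1787 for WT, given as a description because the windows were picked on 2 of these genotypes. At 72 of the 76 the *met-2 set-25* libraries lay above all WT libraries, against 10.5% of all windows. The 76 were picked by this same contrast, which favours such a separation, so that count is no separate support.

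**Figure D2:**
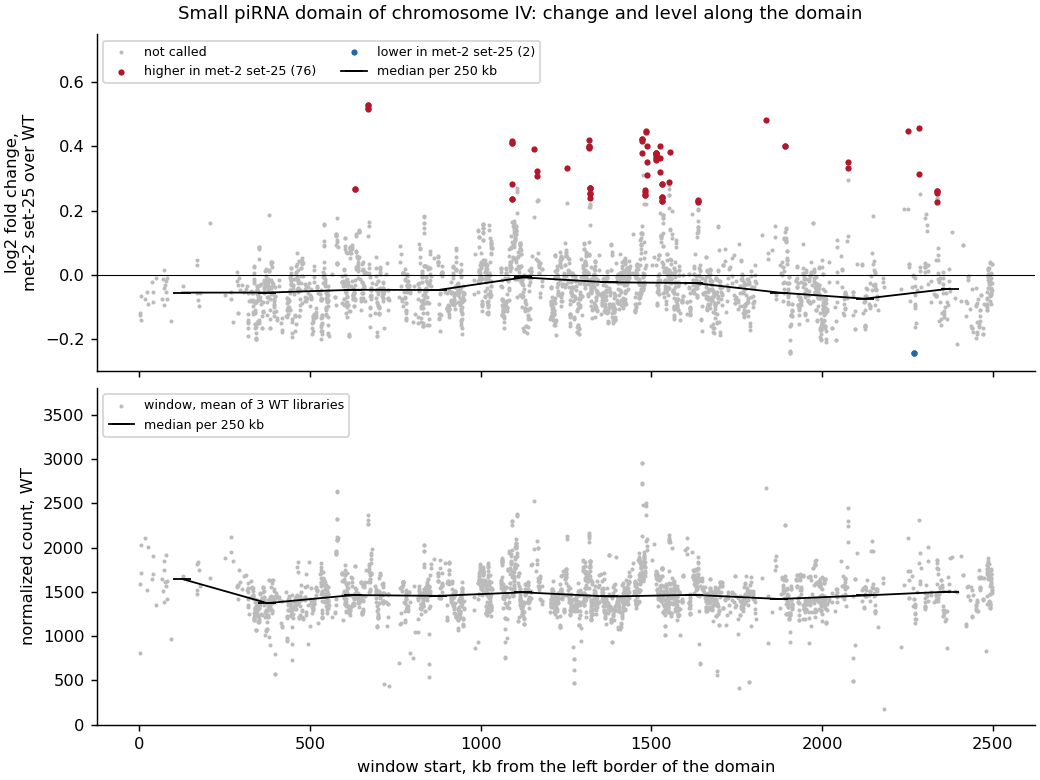
Top, log2 fold change of *met-2 set-25* over WT for each cluster window, and bottom, mean WT normalized count, both against the distance of the window start from the left border of the domain in kb. Red points are the 76 higher and blue points the 2 lower windows, and black marks are medians of 250 kb bins. The bins from 1250 to 1500 kb and from 1500 to 1750 kb hold 25 and 24 red points.

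Along the domain the higher windows were spread unevenly. Of 10 bins of 250 kb, the bin from 5750000 held 25 higher windows of 513 (4.87%) and the bin from 6000000 held 24 of 406 (5.91%). The rightmost bin, from 6750000, had a similar share with 7 of 170 (4.12%), and the bin from 5500000 held 9 of 421 (2.14%). Windows of a bin share reads, so these are counts of windows and not of separate sites. The bins from 4500000, 4750000 and 5250000 held none among 30, 263 and 297 windows. Changes were shared with neighbours, since non-overlapping windows at most 1000 bp apart had a Pearson correlation of 0.432 for the log2FC in *met-2 set-25* (465 pairs), 0.184 in *met-2* and 0.349 in *set-25*. At 1000 to 5000 bp it was 0.183, 0.103 and 0.236 (188 pairs). The windows of a pair come from the same libraries and the contrasts share the WT libraries, so these coefficients are descriptions.

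The smallest adjusted p was found in a run of stretches between 6012834 and 6033762, around the genes *C46G7.2*, *C46G7.5* and *pqn-22*. The piRNA window *21ur-9058* (6026236 to 6027935), overlapping 4 windows of *pqn-22*, had 2099, 2253 and 2177 normalized counts in *met-2 set-25* libraries, against 1942, 1782 and 1632 in *met-2*, with 1561, 1574 and 1530 for *set-25* and 1594, 1768 and 1575 for WT. All *met-2 set-25* libraries were above every other library. Its log2FC over WT was 0.40 (standard error 0.060, adjusted p = 7.5e-06 from edgeR), and it was 0.29 over *met-2* and 0.49 over *set-25*, both called. To its left, *21ur-8703* (6013384 to 6015083) had 2124, 2251 and 2117 in *met-2 set-25* libraries, against 1949, 1786 and 1690 in *met-2*, with 1506, 1646 and 1577 for *set-25* and 1532, 1905 and 1537 for WT, and edgeR gave a log2FC over WT of 0.38 with a standard error of 0.064 and an adjusted p = 7.5e-05. It is part of a stretch of 9 higher windows, the most of any stretch, and both coding windows there were higher too. The stretch of *21ur-9058* held 3 higher piRNA windows, and all 4 coding windows overlapping it were higher. The last stretch of the run, at 6031202 to 6033762 and also over *pqn-22*, held 7 higher piRNA windows, and 8 of the 16 coding windows overlapping it were higher.

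The largest change of the cluster, by contrast, was away from any coding window. *21ur-14622* (5169159 to 5170858) had 2871, 3828 and 3146 normalized counts in *met-2 set-25* libraries, against 2825, 2792 and 2071 in *met-2*, with 1914, 2138 and 2091 for *set-25* and 2100, 2663 and 2047 for WT. The double mutant libraries lay above all WT libraries, and edgeR gave a log2FC of 0.53 ± 0.0965 (standard error) at an adjusted p = 0.00022, although WT replicate 2 reached 2663. Without *met-2 set-25* replicate 2 the log2FC of *21ur-14622* was 0.40 and the call was lost (adjusted p = 0.014 from edgeR), and with the signal index as a covariate it was 0.086 (adjusted p = 0.83). All 4 higher windows of this stretch were piRNA windows. Also without a coding window, *21ur-7760* (6750586 to 6752285) had 2755, 2988 and 2882 in *met-2 set-25* libraries, against 2234, 2502 and 2057 in *met-2*, with 2016, 1984 and 2031 for *set-25* and 2050, 2311 and 1960 for WT. Its log2FC was 0.45 over WT (standard error 0.078, adjusted p = 0.00012 from edgeR) and 0.34 over *met-2*, both called. At 5816555 to 5819055, a stretch of 5 higher piRNA windows again had no coding window, and *21ur-1908* in it had 2562, 3336 and 2786 in *met-2 set-25* against 2101, 2334 and 2057 in WT (log2FC 0.42).

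Other higher stretches lay at the promoters of coding genes. The unmatched transcript at 6336157 to 6337856, whose window overlaps those of *ipla-6* and *mif-4*, had 3472, 4040 and 3672 normalized counts in *met-2 set-25* against 2628, 3030 and 2347 in WT, which gave a log2FC of 0.48. The ncRNA gene *C17H12.32* (6784537 to 6786236), at *dyci-1*, a dynein intermediate chain, had 2789, 3575 and 3142 in *met-2 set-25* against 2260, 2582 and 2077 in WT, a log2FC of 0.46. Both coding windows were higher as well at each of these places. Beside *unc-44* there were 3 stretches, with *21ur-6059* (log2FC 0.40), *21ur-10255* (log2FC 0.42) and *B0350.74* (log2FC 0.45) among their members, and none of the *unc-44* windows that overlapped them was called. At *kcc-2*, a potassium-chloride cotransporter, *21ur-2354* had 2582, 2807 and 2688 in *met-2 set-25* against 1914, 2365 and 1909 in WT (log2FC 0.38), and neither of 2 coding windows passed the test. The windows of *soc-2*, a scaffold of Ras signalling, *skn-1* and *bec-1*, the Beclin of autophagy, were each higher together with the cluster windows that overlapped them, among them *T19E7.26* at *skn-1* (log2FC 0.39). Reads of a coding promoter and of a piRNA window that overlaps it cannot be told apart. Of the 10 non-overlapping windows with the smallest p, *21ur-9058*, *21ur-8703* and *21ur-7760* passed the test whichever library was left out. With the signal index as a covariate these 3 did not pass (adjusted p = 0.26, 0.49 and 0.15 from edgeR). The other 7, which were *21ur-14622*, the unmatched transcript, *C17H12.32*, *21ur-6059*, *21ur-1908*, *T19E7.29* and *21ur-2354*, did not pass without *met-2 set-25* replicate 2. All of these but *21ur-14622* also did not pass without WT replicate 3, and *21ur-6059* and *21ur-2354* did not pass without WT replicate 1.

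**Figure D3:**
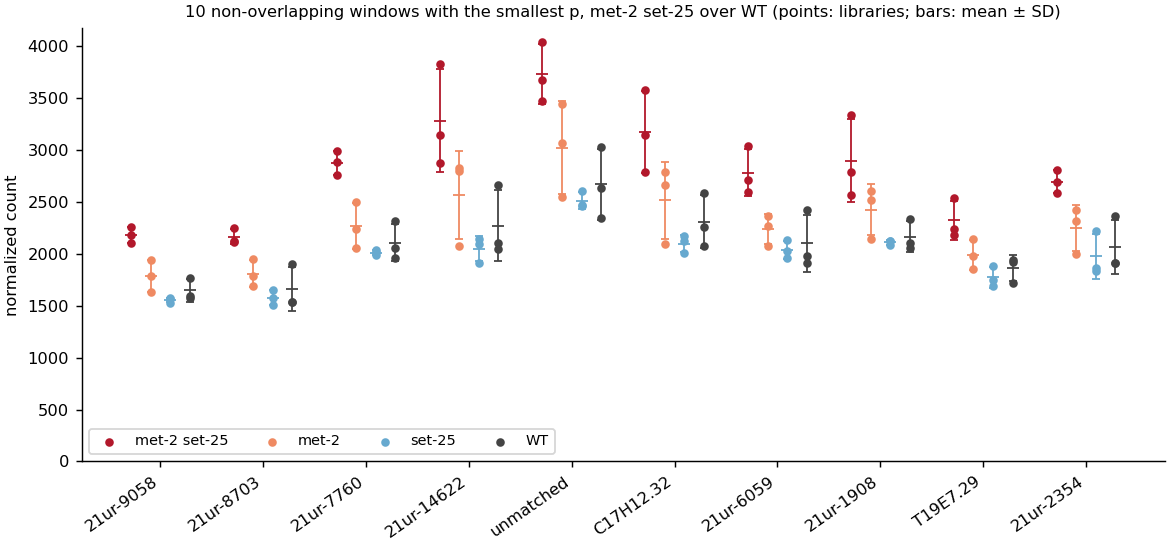
Normalized counts (y axis) of the 10 non-overlapping cluster windows with the smallest p in *met-2 set-25* over WT (x axis), with points for the libraries and bars for the mean ± SD of 3 libraries. The *met-2 set-25* points lie above all WT points at each window, and *set-25* points are lowest or overlap with WT.

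The 2 lower windows were *21ur-7784* and *21ur-13847*, which share a stretch at 6770423 to 6772123 overlapping a window of *anat-1* that was not called. The log2FC of *21ur-7784* was -0.25. No lower window was called with TMM scaling, with DESeq2 or in the fit of the compared genotypes alone.

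Higher windows were mostly those with much signal to begin with. Ranked by the mean level in *set-25* libraries, which took no part in the contrast, the top decile of the cluster held 46 of the 76 higher windows (16.3% of its 283 windows), the next deciles 13, 11 and 4, and the lowest 4 deciles none. Over all windows ranked likewise, the top decile held 17.4% higher windows. Few cluster windows reached that level, and of the 111 cluster windows in the top decile of all windows, 33 (29.7%) were higher. The median log2FC ran from -0.062 in the lowest decile of the cluster to 0.052 in the top decile. The *set-25* libraries share the fit with the contrast, and the difference to all windows was not tested.

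**Figure D4:**
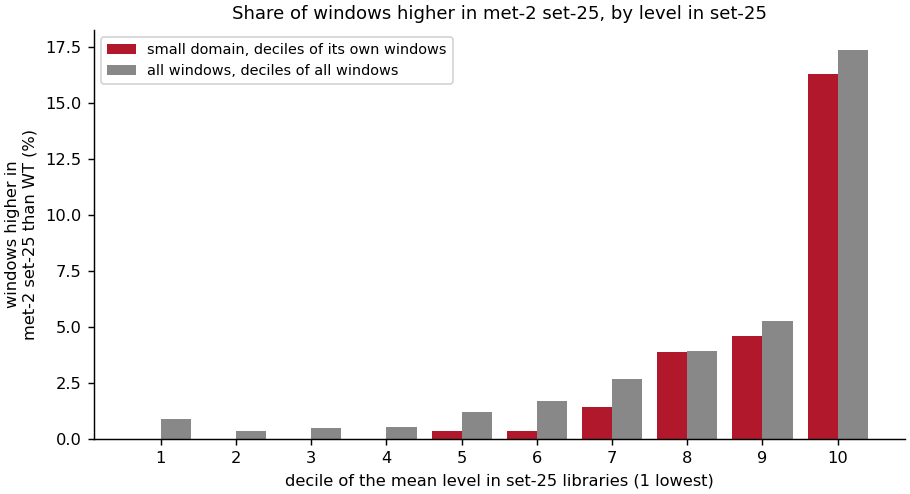
Percentage of windows called higher in *met-2 set-25* than in WT (y axis) by decile of the mean level in *set-25* libraries (x axis, 1 lowest). Red bars are cluster windows in deciles of the cluster and grey bars all windows in deciles of all windows, with 16.3% and 17.4% in the top decile.

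Neither single mutant had a called window in the cluster. In *met-2* over WT the count was 0 higher and 0 lower (0.0702% and 0.0312% of all windows), with a median log2FC of 0.0065 in edgeR. At an unadjusted p under 0.05, edgeR had 57 higher and 29 lower windows of 2823, against 1188 and 1507 of all 51281. DESeq2 called 0 higher and 2 lower at an FDR below 0.01. The smallest adjusted p was at *21ur-6672* (6530532 to 6532231), which had 1195, 1169 and 1333 normalized counts in *met-2* against 1544, 1500 and 1425 in WT (log2FC -0.27, standard error 0.065, adjusted p = 0.062 from edgeR). The *met-2* and WT libraries did not overlap there. *21ur-9334* was at 1681, 1543 and 1654 in *met-2* libraries and 1664, 1642 and 1635 in those of *set-25*, against 1872, 1869 and 1825 in WT, so WT was above all single mutants, yet the adjusted p from edgeR was 0.35 for *met-2* and 0.59 for *set-25*. *21ur-5855* had a log2FC of 0.18 in *met-2* over WT (adjusted p = 0.66 from edgeR). Without *met-2* replicate 3, 1 window was called lower.

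In *set-25* over WT the count was also 0 higher and 0 lower (0.0117% and 0.0156% of all windows), and DESeq2 called none. An unadjusted p under 0.05 in edgeR was reached by 134 higher and 19 lower windows of 2823, against 2284 and 1571 of all 51281. The median log2FC was 0.021, against 0.0065 over all windows and 0.045 in the large domain. *21ur-6629* had the smallest p, with 1475, 1652 and 1622 normalized counts in *set-25* libraries against 1487, 1387 and 1283 in WT (log2FC 0.20, adjusted p = 0.59 from edgeR), and its libraries overlapped. *21ur-13354* was next, at 1685, 1572 and 1491 in *set-25* libraries against 1407, 1411 and 1333 in WT (log2FC 0.19, adjusted p = 0.59 from edgeR). At the 76 windows higher in *met-2 set-25*, the log2FC over WT had a median of 0.087 in *met-2*, where 70 of 76 were above 0, and of -0.081 in *set-25*, where 6 were above 0. Over all windows, 49.7% were above 0 in *met-2* and 53.3% in *set-25*. The 76 windows share reads within 23 stretches, so they are not separate sites, and the difference to all windows was not tested. All 3 contrasts share the WT libraries.

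**Figure D5:**
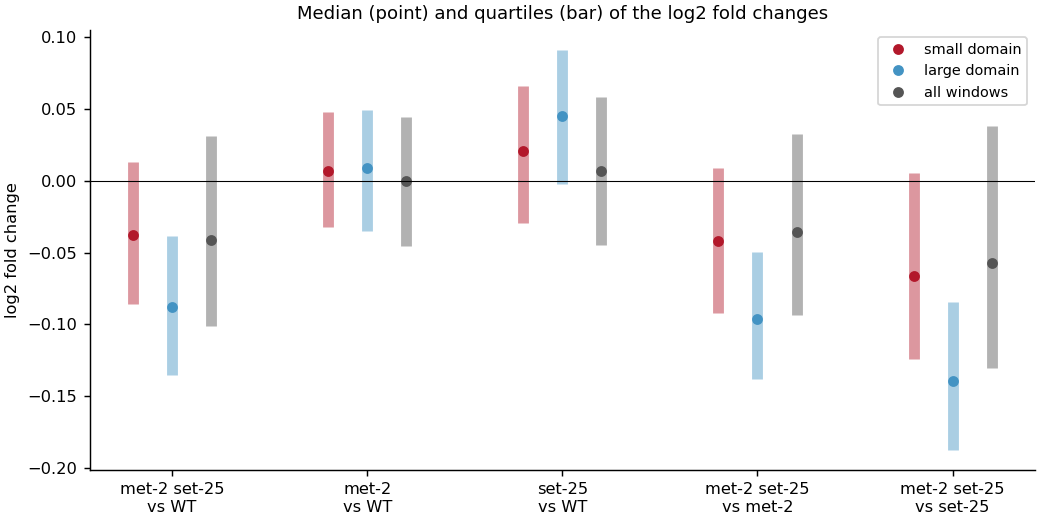
Median (point) and quartiles (bar) of the log2 fold change (y axis) for 5 contrasts (x axis), in the small domain (red), the large domain (blue) and all windows (grey). For *met-2 set-25* over WT the medians are -0.038 in the small domain, -0.088 in the large domain and -0.041 over all windows.

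Compared with *met-2*, the double mutant had 8 higher cluster windows and 0 lower (0.367% and 0.0371% of all windows), all piRNA windows in 4 stretches and all among the 76. The stretches were those of *21ur-9058*, *21ur-12530*, *21ur-12268* and *21ur-7760*. *21ur-12268* (6031202 to 6032901) had 1859, 2128 and 1959 normalized counts in *met-2 set-25* against 1668, 1756 and 1526 in *met-2* (log2FC 0.26, standard error 0.058, adjusted p = 0.0081 from edgeR). *21ur-12530* (6012837 to 6014536) had 2080, 2321 and 2204 in *met-2 set-25* against 1946, 1846 and 1619 in *met-2* (log2FC 0.29). At neither window did the genotypes overlap. With single libraries left out, the count was 0 without *met-2 set-25* replicate 2, *met-2 set-25* replicate 3 or *met-2* replicate 3, 1 without any 1 of the *set-25* libraries and 5 without *met-2* replicate 1. It was 25 without *met-2 set-25* replicate 1, 19 without *met-2* replicate 2 or WT replicate 3, and 33 without WT replicate 2. At an unadjusted p under 0.05 in edgeR, 171 windows of 2823 were higher and 332 lower, against 4720 and 6452 of all 51281. DESeq2 called 71 higher and 0 lower.

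Compared with *set-25*, the double mutant differed most. edgeR called 141 windows higher (4.99%) and 64 lower (2.27%), against 7.64% and 3.77% of all windows. With TMM scaling the split was 170 higher and 21 lower and with DESeq2 196 and 40, so the share of lower calls depended on the scaling. Of the 76 windows higher than WT, 75 were also higher than *set-25*. Both directions together, the count was 83 without *met-2 set-25* replicate 2, 114 without *set-25* replicate 1, 135 without *set-25* replicate 2 and 132 without *set-25* replicate 3, against 205 with all libraries. The longest higher stretch, 5816555 to 5822129, held 15 windows without a coding window. Among windows that do not overlap each other, the smallest p were at *21ur-9058* and *21ur-12530* (log2FC 0.49 each), followed by *21ur-6661* (5168514 to 5170213). The last had 2948, 3984 and 3256 normalized counts in *met-2 set-25* against 1975, 2166 and 2118 in *set-25* (log2FC 0.70, standard error 0.099, adjusted p = 9.1e-07 from edgeR).

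The 64 windows lower than in *set-25* formed 21 stretches in 18 merged loci, and 61 of them were piRNA windows. The bin from 4750000 held 33 of them and no higher window. The others lay in bins that also held windows higher than in *set-25*, such as 9 lower and 34 higher in the bin from 5750000, and 7 lower and 30 higher in the bin from 5500000. The bin from 4750000 had a low WT median (1372) and a median log2FC of -0.056 in *met-2 set-25* and of 0.082 in *set-25*, both over WT. At *21ur-9794* (4934416 to 4936115) the values were 1285, 1287 and 1273 in *met-2 set-25* against 1664, 1600 and 1494 in *set-25* (log2FC -0.31, adjusted p = 0.00014 from edgeR). WT lay between them at 1435, 1418 and 1334.

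Whether the double mutant departed from the sum of the single mutants was tested by the interaction. No cluster window passed at an FDR below 0.01 in edgeR (0 higher and 0 lower, against 0.105% and 0.039% of all windows). DESeq2 called 27 higher and 0 lower. At an unadjusted p under 0.05 in edgeR, 166 windows of 2823 were above and 397 below 0, against 5055 and 6880 of all 51281. The smallest adjusted p was at *21ur-14699* (log2FC of the interaction -0.39, adjusted p = 0.013 from edgeR), which had 1266, 1307 and 1229 normalized counts in *met-2 set-25* libraries, against 1460, 1499 and 1562 in *met-2*, with 1610, 1450 and 1643 for *set-25* and 1395, 1398 and 1470 for WT. Its *met-2 set-25* libraries were below all others. *21ur-9794* had -0.38 and *21ur-9058* had 0.37, with adjusted p = 0.015 and 0.016 from edgeR. Leaving out 1 library gave 28 called windows for WT replicate 3, 15 for *met-2* replicate 2, 7 for *met-2 set-25* replicate 1, 4 for *met-2* replicate 1, 2 for WT replicate 1 and 1 for *set-25* replicate 2.

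Among the other small RNA genes of the domain, 1 of the 10 snoRNA windows and none of the 9 microRNA and 4 snRNA windows were called in *met-2 set-25* over WT. With 3.44% of all windows called higher, these classes are too small for the counts to set them apart. The snoRNA was *T19E7.29* (5664728 to 5666427), in a window shared with *bec-1*, with 2242, 2536 and 2184 normalized counts in *met-2 set-25* libraries, against 2141, 1978 and 1854 in *met-2*, with 1690, 1886 and 1747 for *set-25* and 1943, 1917 and 1716 for WT (log2FC 0.32, standard error 0.068, adjusted p = 0.0011 from edgeR). This call of *T19E7.29* was lost without WT replicate 3 (log2FC 0.27, adjusted p = 0.032 from edgeR), without *met-2 set-25* replicate 2 (0.25, adjusted p = 0.036) and with the signal index as a covariate (0.16, adjusted p = 0.65). The snoRNA window *Y73B6A.15* had 2061, 1932 and 2019 in *met-2 set-25* against 1655, 1832 and 1713 in WT, without overlap, but an adjusted p of 0.015 from edgeR. *mir-228*, a microRNA of glia, had 1553, 1691 and 1609 in *met-2 set-25* against 1663, 1576 and 1557 in WT, which overlap (log2FC 0.020). *mir-58.2*, of the bantam-like family, had 1481, 1426 and 1401 in *met-2 set-25* against 1576, 1461 and 1483 in WT (log2FC -0.067). Of the spliced leader genes, which provide the leader trans-spliced to downstream genes of operons, *sls-2.12* was the lowest of these classes, at 666 ± 21.1 normalized counts in *met-2 set-25* against 698 ± 78.6 in WT (SD, n = 3 each), and *sls-2.13* and *sls-2.17* had log2FC values of 0.0024 and -0.075 over WT.

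Of 20 genes of piRNA transcription, processing and action, 18 had a window, with 21 windows in all, *mut-16* and *snpc-4* each with a pair of identical ones, and none within the cluster. None was called in any of the 6 contrasts, which for so few windows is near the share of all windows called in *met-2 set-25* over WT (3.44% higher and 0.731% lower), so nothing is read from that count. In *met-2 set-25* over WT their log2FC ran from -0.21 at *wago-1*, a germline Argonaute, to 0.10 at *unc-130*, a forkhead transcription factor, with a median of -0.047 and a smallest adjusted p of 0.037 from edgeR. *prg-1*, the piRNA Argonaute, had 1595, 1712 and 1660 normalized counts in *met-2 set-25* against 1682, 1791 and 1861 in WT (log2FC -0.11). The factors of piRNA gene transcription *prde-1* (log2FC -0.057), *snpc-4* (0.012), *tofu-4* (-0.14) and *tofu-5* (-0.022) did not pass the test either. At the right end of the domain, the promoter of *pgl-1*, a component of germ granules, had 1502, 1465 and 1604 in *met-2 set-25* libraries, against 1473, 1556 and 1643 in *met-2*, with 1654, 1606 and 1482 for *set-25* and 1556, 1441 and 1601 for WT. All 4 genotypes overlapped (log2FC of *met-2 set-25* over WT -0.008, standard error 0.060, adjusted p = 0.95 from edgeR).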

How the data were processed

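ATAC-seq counts were analysed for 12 libraries of 4 genotypes, 3 each, grouped by the sample labels. Per the study's methods, the authors trimmed adaptors, aligned reads to ce10 with Bowtie2, removed duplicates with Picard, shifted read ends for Tn5 and counted them per window irrespective of strand with QuasR. The deposited values are raw counts, not normalized. Of 51519 windows, 238 at 0 in every library were left out. The other 51281 went into the quasi-likelihood test of edgeR 4.0.16 (R 4.3.3, two-sided, all libraries in 1 fit, column totals as library sizes, no TMM factors, no covariate), with Benjamini-Hochberg adjustment over all of them and calls at an FDR below 0.01. Contrasts were 5 pairs and the interaction. The procedure was tested on simulated data with log2 folds of 0.6 and 0.8 in *met-2 set-25* over WT. The largest change called in the cluster for that contrast was 0.53, so changes of that size were not covered. Alternatives were TMM factors, DESeq2 1.42.0, filterByExpr, a replicate block, the signal index as covariate, an FDR of 0.05, distinct windows, windows of a single interval, the compared genotypes alone and each library left out in turn. A comparison of level among piRNA windows only was added after seeing the data.

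Named windows were the cluster windows, without overlap, with the 10 smallest p in *met-2 set-25* over WT, the 3 smallest in every other contrast, the 5 highest and 5 lowest WT levels, other small RNA genes and *pgl-1*. The members and lists were chosen with earlier results of these data known. Names and biotypes come from RefSeq (WBcel235), matched by transcript identifier, and no coordinates were taken from it. Sequences were not analysed here. Python 3.11.15 with pandas 2.3.3, numpy 2.4.6 and matplotlib 3.10.9 made the summaries and figures.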

Additional observations from a re-analysis of the deposited data

How the results depend on the processing

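The level of the cluster moved by less than the spread between libraries under the 4 alternatives run for it, 0 windows were called in *set-25* over WT under each of its 22 alternatives, and no value changed direction past a call. The share of cluster windows called, higher and lower together, changed more. For *met-2 set-25* over WT (2.76%), an FDR of 0.05 gave 4.78%, the signal index as covariate 0, and leaving out single libraries 0.461 to 4.04%. For *met-2 set-25* over *met-2* (0.283%), DESeq2 gave 2.52%, TMM factors 0.708%, the compared genotypes alone 0.106%, the signal index 0, an FDR of 0.05 2.94%, and leaving out single libraries 0 to 1.17%. For *met-2 set-25* over *set-25* (7.26%), the signal index gave 0, an FDR of 0.05 17.2%, and leaving out single libraries 2.94 to 8.82%. For the interaction (0), DESeq2 gave 0.956%, an FDR of 0.05 2.59%, and leaving out single libraries 0 to 0.992%. For *met-2* over WT (0), DESeq2 gave 0.0708%, the signal index 0.0354%, and leaving out single libraries 0 to 0.0354%. The cause of these differences was not tested.

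A replicate block in the fit gave 3.72% for *met-2 set-25* over WT, 2.41% over *met-2*, 9.49% over *set-25* and 2.05% for the interaction, and the replicate block with TMM factors gave 4.22, 3.47, 7.65 and 2.16% in the same order. Libraries of the same number had a mean correlation of 0.0909 over 18 pairs (from -0.158 to 0.399), against -0.0463 over 36 other pairs, and 7 of 12 libraries correlated best with their own number, so the numbers were not taken to pair the samples. No cluster window had 3 or fewer counts in any library, and what depth limits beyond that was not tested. The motif search among the plans was not run.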
